A study of Mus musculus with 17 samples.

Results

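The mitochondrial respiratory chain was followed in whole mouse kidneys through the genes that encode its subunits in both genomes of the cell. Members were chosen by symbol alone: those starting with Nduf (complex I), Sdha to Sdhd (complex II), those starting with Uqcr (complex III), Cox4 to Cox8 (complex IV) or Atp5 (complex V), and the protein genes of mitochondrial DNA. By function, 3 were then counted elsewhere: Atp5sl, an assembly factor, with complex I, and Ndufa4 and Ndufa4l2 with complex IV. This gave 107 of the 22558 genes analysed, 94 of them nuclear and 13 mitochondrial. The nuclear members comprised 44 of complex I (8 of them assembly factors), 4 of complex II, 8 of complex III, 18 of complex IV and 20 of complex V (4 of them pseudogene symbols). The mitochondrial members comprised 7 of complex I, 1 of complex III, 3 of complex IV and 2 of complex V, and complex II has none.

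Ctrl mice (n = 5) were male C57BL/6 with a wild-type genotype, and Case mice (n = 6) were male db/db, which lack the long form of the leptin receptor and become obese and diabetic. Dapa mice (n = 6) were db/db given dapagliflozin, an inhibitor of the glucose carrier SGLT2 of the proximal tubule, in an oral daily dose of 1 mg/kg that began at 8 weeks of age and lasted 6 weeks, and the other groups received saline. The db/db mice were of the BKS background, so strain and genotype cannot be told apart in either comparison with Ctrl. RNA was selected for poly(A) tails, and 1 library per mouse held 13039535 to 17779635 counts.

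The respiratory chain sits in the inner membrane of mitochondria. Complexes I and II pass electrons from NADH and succinate to ubiquinone, complex III passes them on to cytochrome c, and complex IV passes them to oxygen. Complexes I, III and IV pump protons as they do so, and complex V, the ATP synthase, uses the returning protons to make ATP. Mitochondrial DNA encodes core membrane subunits of every complex except II, and all other subunits are made from nuclear genes and imported. Proximal tubule cells, which make up most of the kidney cortex, are packed with mitochondria that power the reabsorption of glucose, amino acids and sodium, and the defining markers of that segment were high in every library (summed FPKM of 17 markers 4603 to 9034).

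Counts on the 13 mitochondrial protein genes made up 17.9% to 27.6% of each library, and counts on the 94 nuclear members 1.52% to 1.97%. In terms of FPKM (fragments per kilobase of transcript, scaled to the library total), which allows genes of different length to be compared, 12 of the 13 mitochondrial genes were among the 20 most abundant genes of the kidney. The levels of mt-Atp8 (ATP synthase membrane subunit, mean FPKM over 17 libraries 39726) and mt-Co1 (the catalytic subunit of complex IV, 39485) led, followed by mt-Co2 (27643), mt-Atp6 (the proton channel of the ATP synthase, 26135), mt-Cytb (cytochrome b of complex III, 23065) and mt-Co3 (22367). The place of mt-Atp8 is uncertain, since it spans only 204 bases and shares 43 of them with mt-Atp6, which is read from the same mRNA. The complex I genes were lower, with mt-Nd4l at 16927, mt-Nd1 at 16201, mt-Nd4 at 14664, mt-Nd2 at 12220, mt-Nd5 at 8415 and mt-Nd3 at 5811. The lowest was mt-Nd6 at 281, the single protein gene of the light strand, whose mRNA is known to carry little or no poly(A) tail. All 13 are single-exon genes.

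Among nuclear members, the median gene of the whole table (mean FPKM 1.07) was far below most subunits, since 72 of 94 had a mean FPKM of at least 10, 27 of at least 100 and 4 below 1. In complex I the highest were Ndufb9 (285), Ndufa6 (225) and Ndufa2 (142). In complex II, the link between the citric acid cycle and the chain, Sdhd stood at 220, the catalytic flavoprotein Sdha at 166, the iron-sulfur subunit Sdhb at 128 and the membrane anchor Sdhc at 76.3. Complex III was led by the Rieske iron-sulfur protein Uqcrfs1 (238), Uqcrb (169) and Uqcr10 (142). Complex IV held the most abundant nuclear members, Cox8a (637) and Cox6b1 (552), with Cox6a1 at 282, and complex V was led by the catalytic beta subunit Atp5b (358), the alpha subunit Atp5a1 (319) and the c ring gene Atp5g3 (156).

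**Figure D1:**
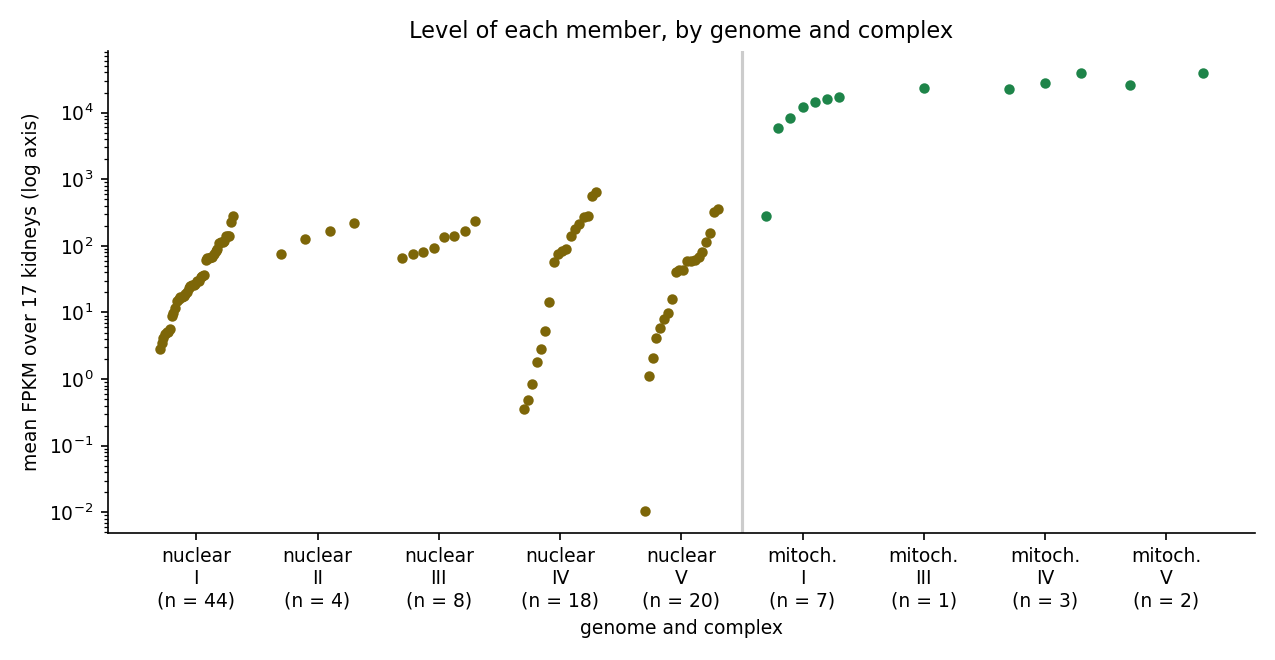
Each point is a gene, placed at its mean FPKM over the 17 kidneys on a logarithmic axis, in columns by genome and complex. The highest nuclear member is Cox8a at 637, and 12 of the 13 mitochondrial genes lie at 5811 or above, with mt-Nd6 alone at 281.

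Where a subunit has tissue-specific forms, the kidney held the widespread form. Cox4i1 was at 177 FPKM and the lung form Cox4i2 at 0.35, Cox6a1 at 282 and the muscle form Cox6a2 at 0.838, and Cox8a at 637 and the muscle and brown fat form Cox8b at 0.49. Cox7a2 (213) and Cox7a2l, a factor of supercomplex assembly (88.1), exceeded the muscle form Cox7a1 (14.5). Ndufa4, a subunit first assigned to complex I and now to complex IV, was at 82.8 and its hypoxia-induced relative Ndufa4l2 at 2.81. Of the 3 genes for the identical c subunit, Atp5g3 (156) exceeded Atp5g1 (5.77) and Atp5g2 (1.12). Markers of skeletal and heart muscle summed to at most 1.23 FPKM in any library.

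Libraries of the same group did not all look alike, and some features bear on the members. Case mice 1 and 2 had far fewer counts on mt-Atp6 than any other mouse. Case mouse 3 had the lowest summed proximal tubule markers (FPKM 4603, against 7917 to 8699 in Ctrl) and the highest macrophage markers (FPKM 513, against 65.6 to 103 in Ctrl). In addition, 7 libraries (Ctrl mice 1, 3 and 4, Case mouse 1 and Dapa mice 10, 11 and 12) stood apart in the deposited table, because count and FPKM of 3 genes with broken entries did not match in them. Erythrocyte markers summed to 18.2 to 69.6 FPKM in Ctrl, 56.7 to 436 in Case and 110 to 358 in Dapa.

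The share of counts on the mitochondrial protein genes was compared mouse by mouse. In Ctrl it was 20.2%, 19.3%, 18.9%, 20.4% and 17.9% in mice 1 to 5 (mean 19.4% ± 1.02, SD, n = 5). In Case it ranged from 19.8% (mouse 5) to 27.3% (mouse 6) with a median of 22.4% (mean 22.9% ± 2.85, SD, n = 6), and in Dapa from 19.7% (mouse 8) to 27.6% (mouse 12) with a median of 23.9% (mean 23.5% ± 3.32, SD, n = 6). The share exceeded that of every Ctrl mouse in 5 of 6 Case and 4 of 6 Dapa mice, though Case mouse 1 did so by less than the rounding of these values, and the ranges of Case and Dapa were nearly the same. Within the 7 libraries set apart above, the means were 19.9% in 3 Ctrl, 20.4% in 1 Case and 25.3% in 3 Dapa mice, and within the other 10 they were 18.6% in 2 Ctrl, 23.4% in 5 Case and 21.7% in 3 Dapa mice, so the order of Case and Dapa was not the same in the 2 sets of libraries.

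The nuclear members were summed in the same way. Their level in TMM-scaled CPM (counts scaled to a common library total and divided by edgeR's trimmed-mean factor, which corrects for library composition) was 19214, 18570, 17695, 17462 and 17040 in Ctrl mice 1 to 5 (mean 17996 ± 881, SD). In Case it ran from 14160 (mouse 3) to 19841 (mouse 6) with a median of 17631 (mean 17550 ± 2065), and in Dapa from 15778 (mouse 12) to 17923 (mouse 9) with a median of 17062 (mean 16859 ± 848). The groups overlapped, and which was highest depended on the scale: on summed FPKM the means were 7737 ± 275 in Ctrl, 8334 ± 885 in Case and 8132 ± 232 in Dapa, with 4 of 6 mice of each db/db group above every Ctrl mouse. For the mitochondrial sum the order of the means was the same on both scales. In TMM-scaled CPM its mean was 203475 ± 13141 in Ctrl, 226995 ± 35316 in Case and 229020 ± 34872 in Dapa, and 2 of 6 Case and 3 of 6 Dapa mice were above every Ctrl mouse. No direction is given for the nuclear sum.

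The ratio of mitochondrial to nuclear counts within a library does not depend on the scaling between libraries. On the log2 scale it was 3.53, 3.45, 3.51, 3.56 and 3.44 in Ctrl mice 1 to 5 (mean 3.50 ± 0.05, SD). It was 3.61, 3.67, 3.94, 3.54, 3.50 and 3.87 in Case mice 1 to 6 (mean 3.69 ± 0.18), and 3.50, 3.45, 3.84, 3.90, 3.73 and 4.08 in Dapa mice 7 to 12 (mean 3.75 ± 0.24). In each db/db group 4 of 6 mice lay above every Ctrl mouse and the remaining 2 within the Ctrl range, so the group means differed from Ctrl by 0.19 (Case) and 0.25 (Dapa) but the mice did not separate. On FPKM the same ratio was above every Ctrl mouse in 3 of 6 Case and 4 of 6 Dapa mice and below all of them in Dapa mouse 8, which was also below them in counts without mt-Atp6. The means within the 7 libraries were 3.53 in Ctrl, 3.61 in Case and 3.91 in Dapa, and within the other 10 they were 3.45, 3.70 and 3.60. Case mouse 3 and Dapa mouse 12, which had the highest ratios, also had the lowest nuclear sums and the lowest proximal tubule markers of their groups. The part of cell makeup in these values was not tested, and in whole kidney fewer cells of a type and less RNA per cell cannot be told apart.

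**Figure D2:**
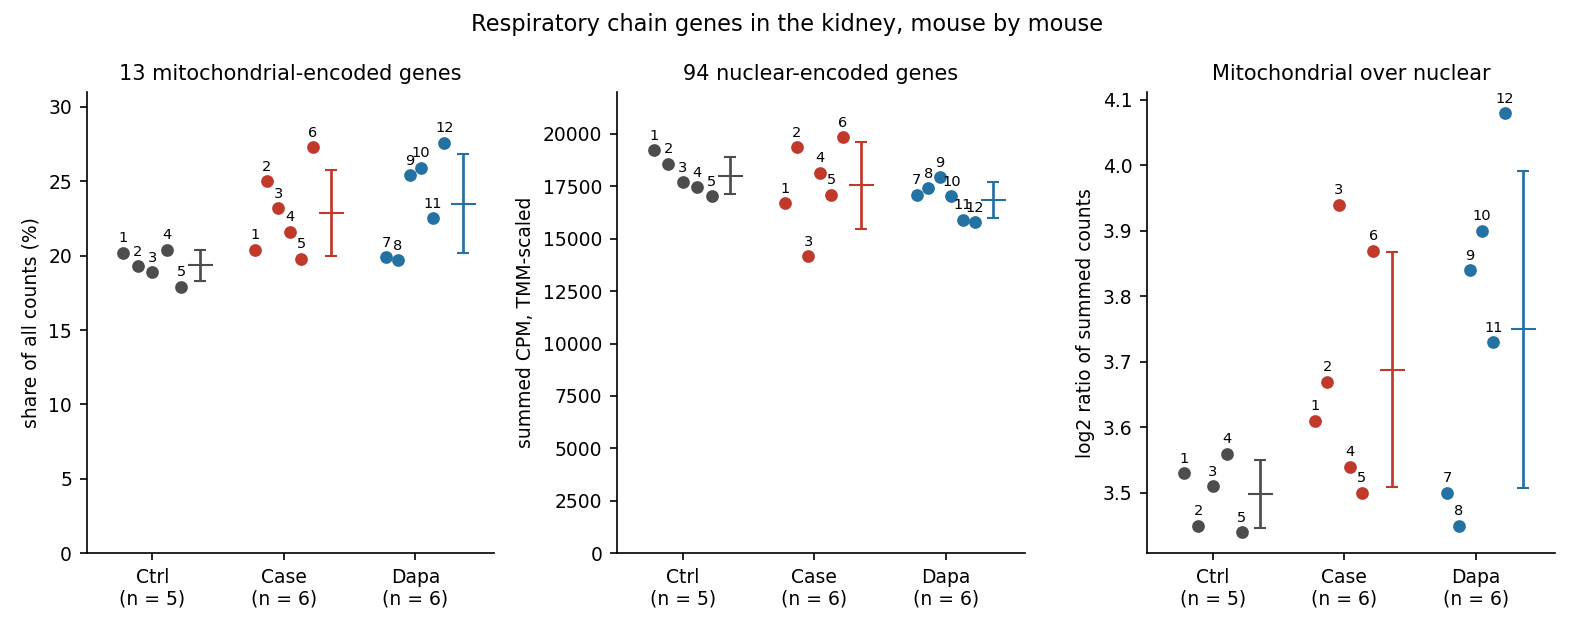
The panels show, for each mouse (numbered points) with the group mean and SD, the percentage of counts on the 13 mitochondrial protein genes, the summed TMM-scaled CPM of the 94 nuclear members, and the log2 ratio of mitochondrial to nuclear counts. Ctrl mice lie close together, with a ratio of 3.44 to 3.56, and the db/db mice spread upwards to 3.94 in Case and 4.08 in Dapa.

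By complex, the same ratio was 4.05 ± 0.06 in Ctrl, 4.15 ± 0.14 in Case and 4.17 ± 0.21 in Dapa for complex I. For complex III (mt-Cytb against its nuclear partners) it was 3.50 ± 0.04, 3.69 ± 0.20 and 3.80 ± 0.26, with 5 of 6 Dapa mice above every Ctrl mouse and Dapa mouse 8 below all of them. For complex IV it was 5.00 ± 0.05, 5.12 ± 0.11 and 5.15 ± 0.19. Complex V stood apart from the others in Case: its ratio was 1.76 ± 0.09 in Ctrl and 2.19 ± 0.29 in Dapa, but 1.71 ± 0.73 in Case, where mice 1 (0.70) and 2 (0.98) were far below all others. Complex V was also the complex with the lowest ratio in every group.

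In complex V of these mice mt-Atp6 was the gene furthest from the other mice. The FPKM of mt-Atp6 was 3835 in Case mouse 1 and 5185 in Case mouse 2, against 22040 to 42215 in the other 15 mice. Its neighbours on the same transcript were not low in those mice: mt-Atp8 was at 35789 and 52225 FPKM (29838 to 54076 in the others), and mt-Co3 at 23103 and 32644 (16243 to 33058 in the others). The ratio of mt-Atp6 to mt-Atp8 counts was 0.358 and 0.331 in the 2 mice and 2.24 to 2.61 in all others. Gaps of this kind were ranked over all 22558 genes on log2(CPM + 1), with counts scaled to the library total and no TMM factor. The largest was that of mt-Atp6, whose higher value in Case mice 1 and 2 lay 2.09 below the lowest of the other 15. Cyp2j13 followed with 1.41. The added 1 shrinks the gaps of genes with few counts, so the ranking holds for this scale only.

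Genes of mitochondrial DNA lie end to end or overlap, which matters for counting. mt-Atp8 (chrM:7766-7969) and mt-Atp6 (chrM:7927-8607) are read from 1 mRNA in different frames and share 43 bases, and mt-Co3 (chrM:8607-9390) follows. The start of mt-Atp6 is shown to mark that shared stretch, in capitals, on the plus strand of GRCm38 (chrM:7927-8046).
mt-Atp6 start: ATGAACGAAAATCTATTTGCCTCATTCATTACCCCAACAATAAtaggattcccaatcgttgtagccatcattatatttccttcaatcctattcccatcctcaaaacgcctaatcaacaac
Nearly all of the 681 bases of mt-Atp6 are present a second time, in the nuclear copy Gm10925 on chromosome 1, which is identical over 678 bases. Counts on Gm10925 were 41514 and 63126 in Case mice 1 and 2 and 40423 to 82037 in the other mice, so the counts absent from mt-Atp6 were not found there. How the counting program divided reads between mt-Atp6, mt-Atp8 and the copies was not tested.

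Such copies limit other members too. The share of 50-base stretches that occur in another annotated gene was 100% for mt-Co2, 99.9% for mt-Co3, 99.5% for mt-Atp6, 98.8% for mt-Nd4l, 98% for mt-Nd3, 62.2% for mt-Nd4 and 51.1% for mt-Co1, and the values of these 7 genes are uncertain. It was 8.19% for mt-Nd2, 7.61% for mt-Nd5 and 0% for mt-Nd1, mt-Nd6, mt-Atp8 and mt-Cytb. Overlaps shorter than 50 bases are not seen in this way. mt-Atp8 shares 43 bases (21.1%) with mt-Atp6 on the same strand. mt-Nd6 shares 14 bases (2.7%) with mt-Nd5 on the opposite strand, and the strand setting of the counting is not given. The values of mt-Atp8 and mt-Nd6 are therefore uncertain too. Of the nuclear members, 16 had a share of at least 10%, among them Uqcrb (25.4%), Ndufb9 (15.6%), Atp5g2 (38.3%) and Atp5g1 (10.2%). With the counts of the nuclear copies added, the mitochondrial share was 20.6% in Ctrl, 24.3% in Case and 25% in Dapa, and without mt-Atp6 it was 18%, 21.7% and 21.8%, with the db/db means above Ctrl either way.

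Gene by gene, mice of the same db/db group differed widely. In Case mouse 6 and Dapa mouse 12 all 13 had an FPKM above every Ctrl mouse, and in Case mice 2 and 3 this held for 12, in Dapa mice 9 and 10 for 11, and in Dapa mouse 11 for 10. In Case mice 1 and 4 it held for 8. At the other end, it held for 2 genes in Case mouse 5, for 2 in Dapa mouse 7 and for 3 in Dapa mouse 8. On TMM-scaled CPM the counts were lower, at 2, 11, 6, 3, 0 and 13 in Case mice 1 to 6 and 0, 0, 11, 10, 3 and 11 in Dapa mice 7 to 12, with the same mice at the ends. Genes below every Ctrl mouse on FPKM numbered 1, 1, 0, 1, 1 and 0 in these Case mice and 3, 3, 0, 0, 0 and 0 in these Dapa mice. On TMM-scaled CPM they numbered 1, 1, 1, 1, 4 and 0 in Case and 3, 4, 0, 0, 1 and 0 in Dapa.

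**Figure D3:**
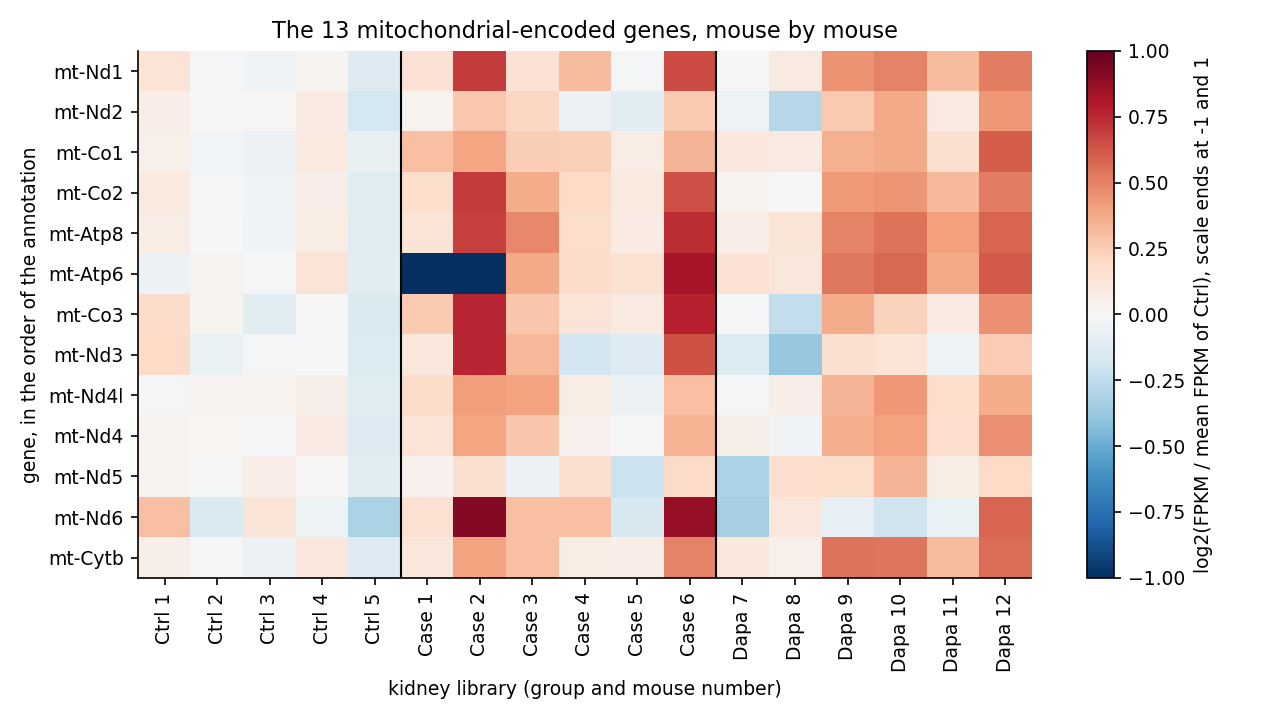
The heat map gives the log2 ratio of each mitochondrial gene's FPKM in each mouse to its mean in Ctrl, with a colour scale that ends at -1 and 1. Case mouse 6 and Dapa mouse 12 are above the Ctrl mean in every row, and mt-Atp6 in Case mice 1 and 2 is at the low end of the scale.

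Case was then compared with Ctrl to see how the chain differed between diabetic and control kidneys. With edgeR's quasi-likelihood test 1895 of 14582 genes tested had a q (Benjamini-Hochberg adjusted p) below 0.05, which is 13% of them (6.09% higher and 6.91% lower). Of the 107 members, 103 passed the filter on low counts and 0 were called, and 9, all nuclear, had an unadjusted p below 0.05. DESeq2 also called 0 (16 at an unadjusted p below 0.05), and limma on log2(FPKM + 1) called 2 as higher, Cox6c and Ndufb9. The median log2 fold change was 0.08 over the nuclear members, 0.19 over the mitochondrial members and 0.03 over all genes tested, and without Case mice 1 and 2 the nuclear median was 0.00 and the mitochondrial 0.18.

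A missed threshold does not make the groups equal, so the intervals are given. The 95% interval of the fold lay within 1.5-fold either way for 80 of the 103 members (77.7%) and within 2-fold for 99 (96.1%), against 49.6% and 75.3% of all genes tested. For the mitochondrial genes it lay within 1.5-fold for 6 of 13 and within 2-fold for 12, mt-Atp6 being the exception (log2 fold change -0.14, 95% interval -1.22 to 0.94).

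The mitochondrial genes had positive log2 fold changes in Case in 11 of 13 instances. The largest was that of mt-Nd6, which stood at 173, 123, 149, 125 and 106 TMM-scaled CPM in Ctrl and from 112 to 249 (median 152) in Case (log2 fold change 0.37, 95% interval -0.07 to 0.81, q = 0.247). mt-Atp8 stood at 7655, 6978, 6863, 7039 and 6291 in Ctrl and from 6847 to 11718 (median 7984) in Case (0.33, interval -0.01 to 0.67, q = 0.184). Both overlapped between the groups, with 2 and 3 of 6 Case mice respectively above every Ctrl mouse, and Case mice 2 and 6 were the highest for each. The counts of both genes carry the uncertainty of overlapping neighbours given above.

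The complex IV genes followed at 0.33 (mt-Co3), 0.31 (mt-Co2) and 0.19 (mt-Co1), with mt-Nd1 at 0.27, mt-Nd3 at 0.22, mt-Cytb at 0.18, mt-Nd4l at 0.15, mt-Nd4 at 0.13, mt-Nd2 at 0.03 and mt-Nd5 at -0.02. By complex the median log2 fold change of the mitochondrial genes was 0.15 for I, 0.18 for III, 0.31 for IV and 0.10 for V, and that of the nuclear members was 0.07 for I, -0.12 for II, 0.05 for III, 0.15 for IV and 0.04 for V.

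Of the nuclear members with the smallest p in Case against Ctrl, Cox6c, a small subunit of complex IV, had 268, 255, 223, 258 and 232 TMM-scaled CPM in Ctrl and 246 to 428 (median 309) in Case (0.38, SE 0.14, q = 0.0909). Ndufv3, an accessory subunit of the NADH-oxidising N module, had 117, 111, 100, 107 and 96.1 in Ctrl and 78.1 to 102 (median 89) in Case (-0.24, SE 0.09, q = 0.0897). The assembly factor Ndufaf6 had 12.9, 12.2, 12, 10.3 and 11.1 in Ctrl and 7.27 to 10.9 (median 8.95) in Case (-0.35, SE 0.13, q = 0.0996). All 3 overlapped between the groups by 1 or 2 Case mice and none passed the threshold.

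Of the 103 members tested, 2 did not overlap between Case and Ctrl in TMM-scaled CPM, as was the case for 8.44% of all genes tested. Sdhc had 351, 329, 336, 331 and 323 TMM-scaled CPM in Ctrl and 206 to 320 (median 286) in Case (-0.25, SE 0.10, 95% interval -0.48 to -0.03, q = 0.129). Uqcrfs1 had 370, 363, 362, 350 and 340 in Ctrl and 247 to 333 (median 316) in Case (-0.24, SE 0.10, interval -0.45 to -0.03, q = 0.128). In both genes Case mouse 3 was the lowest. Ndufs1, an iron-sulfur subunit of the N module, had a log2 fold change of -0.26 (q = 0.104), and Atp5h, a subunit of the stalk of the ATP synthase that shares 19.9% of its stretches with other genes, had 0.28 (q = 0.128).

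Dapa was compared with Case to see what dapagliflozin changed in db/db kidneys. By edgeR's quasi-likelihood test 0 of 14573 genes were called (0%), with 1880 at an unadjusted p below 0.05, and DESeq2 called 202 genes and edgeR's exact test 129. Of the members 102 were tested, 0 were called by any of these tools, and 5 had an unadjusted p below 0.05. The median log2 fold change was -0.05 over nuclear members, -0.01 over mitochondrial members and -0.01 over all genes tested. The 95% interval lay within 1.5-fold for 87 of 102 members (85.3%) and within 2-fold for 100 (98%), against 57.4% and 82.8% of all genes tested.

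The member with the smallest p in that comparison was Atp5s, a regulator of ATP synthase coupling, at 9.33 to 17.7 (median 14) TMM-scaled CPM in Case and 8.68 to 12.7 (median 10.7) in Dapa (log2 fold change -0.38, 95% interval -0.70 to -0.06, q = 0.325). Next were Ndufab1, the acyl carrier protein of mitochondria (-0.27, q = 0.332), Ndufc1 of the membrane arm (-0.27, q = 0.362), the assembly factor Ndufaf3 (-0.25, q = 0.379) and mt-Nd6 (-0.45, interval -0.88 to -0.01, q = 0.377). All 5 overlapped between the groups, and 0.542% of all genes tested did not. mt-Nd6 was at 112 to 249 (median 152) in Case and 99 to 186 (median 119) in Dapa, with Dapa mice 7 and 10 below every Case mouse.

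Dapa against Ctrl compared treated diabetic with control kidneys. It shares its Ctrl mice with the first comparison and its Dapa mice with the second, so the 3 comparisons are not independent. Of 14647 genes tested 4260 were called by edgeR's quasi-likelihood test, which is 29.1% (14.2% higher and 14.9% lower). Of 104 members tested 6 were called (5.77%), 2 higher and 4 lower, all nuclear, and 13 had an unadjusted p below 0.05. limma on log2(FPKM + 1), which uses the deposited scale without TMM factors, called 15 of the 104, 13 higher and 2 lower, beside 4406 of all 14647 genes, with a nuclear median of 0.08 against -0.01 by edgeR and an all-gene median of 0.07 against 0.02.

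**Figure D4:**
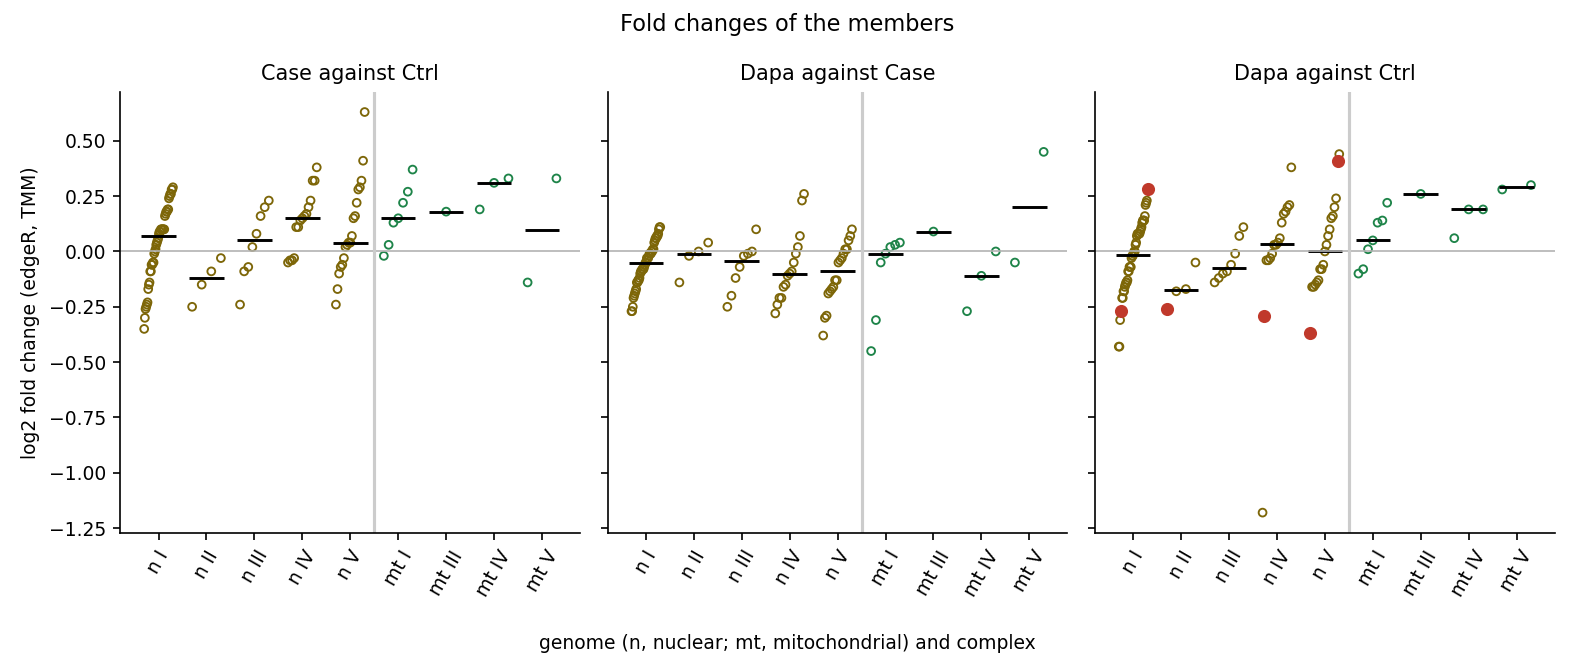
Each point is the log2 fold change of a member in 1 of the 3 comparisons, in columns by genome and complex, filled where q is below 0.05, with a bar at the median of the column. Most points lie within 0.5 of zero, the 6 filled points are all nuclear and in Dapa against Ctrl, and the mitochondrial columns have medians of 0.05 to 0.31 in the comparisons with Ctrl.

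The share of members called, 5.77%, was below that of all genes in the same test, 29.1%. The mitochondrial median was 0.14, the nuclear -0.01 and that of all genes 0.02. The 95% interval lay within 1.5-fold for 91 of 104 members (87.5%), among them all 13 mitochondrial genes, against 44.8% of all genes tested. Between Dapa and Ctrl 4 members did not overlap in TMM-scaled CPM, and neither did 14.4% of all genes tested. The lowest log2 fold change, -1.18, was that of Cox6a2, which had 1 to 24 counts in a library (q = 0.17).

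Atp5o (ENSMUSG00000022956, chr16:91684398-91931687) rose in Dapa against Ctrl. It encodes the stalk subunit that joins the catalytic head of the ATP synthase to its stator. Its level was 215, 242, 233, 157 and 208 TMM-scaled CPM in Ctrl and 269 to 298 (median 276) in Dapa, with no overlap (log2 fold change 0.41, SE 0.10, 95% interval 0.19 to 0.63, q = 0.00971). In Case it was 197 to 340 (median 257), overlapping both other groups. It was called in 24 of 24 alternative analyses, but a second gene of the same name overlaps it on the same strand over 12.3% of its exon bases, 14% of its 50-base stretches are shared and 2 genes lie on the opposite strand, so its counts are uncertain.

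Atp5b (ENSMUSG00000025393, chr10:128083273-128090391) fell. It encodes the beta subunit, which holds the catalytic sites of the ATP synthase. Its level was 3211, 2965, 2926, 2600 and 2737 in Ctrl and 1915 to 2557 (median 2235) in Dapa, with every Dapa mouse below every Ctrl mouse on TMM-scaled CPM (-0.37, SE 0.10, 95% interval -0.59 to -0.15, q = 0.016). In Case it was 1982 to 2688 (median 2532), with 3 of 6 mice below every Ctrl mouse. The alpha subunit gene Atp5a1, with which Atp5b forms the catalytic head, had mean FPKM of 314 ± 7.72 in Ctrl, 317 ± 27.6 in Case and 325 ± 22.7 in Dapa, and Atp5b of 397 ± 20.1, 354 ± 36.7 and 330 ± 36.6. On TMM-scaled CPM the means of Atp5a1 were 1739 ± 76.9, 1653 ± 174 and 1670 ± 125, so its direction against Ctrl depended on the scale. On FPKM Atp5b overlapped between Dapa and Ctrl, at 380 in Dapa mouse 7 and 372 in the lowest Ctrl mouse.

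Ndufa4 (ENSMUSG00000029632, chr6:11900292-11907497) fell, from 274, 253, 239, 218 and 227 TMM-scaled CPM in Ctrl to 176 to 212 (median 200) in Dapa, again with no overlap (-0.29, SE 0.08, 95% interval -0.46 to -0.12, q = 0.0162). Its values in Case spanned those of both other groups, at 170 to 304 (median 216). Sdhc (ENSMUSG00000058076, chr1:171127165-171150603), the cytochrome b anchor of complex II, fell from the 323 to 351 given above for Ctrl to 244 to 308 (median 279) in Dapa, with no overlap (-0.26, SE 0.07, interval -0.42 to -0.10, q = 0.0193). The difference between Dapa and Case for Sdhc was 0.00 (interval -0.24 to 0.23).

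Ndufa11 (ENSMUSG00000002379, chr17:56717762-56724248), a subunit of the complex I membrane arm, rose. It had 67.8, 57.1, 54.1, 65.9 and 58.6 TMM-scaled CPM in Ctrl and 64.5 to 82.3 (median 72.4) in Dapa, where 5 of 6 mice were above every Ctrl mouse (0.28, SE 0.08, 95% interval 0.09 to 0.46, q = 0.027). Ndufs1 (ENSMUSG00000025968, chr1:63143596-63176833) fell from 347, 348, 342, 281 and 328 to 230 to 304 (median 280), with overlap (-0.27, SE 0.09, interval -0.47 to -0.07, q = 0.0465). Atp5b was called in 23 of 24 alternatives, Ndufa4 in 21, Sdhc and Ndufa11 in 19 each and Ndufs1 in 8. Without Ctrl mouse 1 only Atp5o and Ndufa11 were called, without Ctrl mouse 2 only Atp5o and Atp5b, and without Ctrl mouse 3 only Atp5o, Ndufa4 and Atp5b, and without Dapa mouse 7 the number rose to 10.

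**Figure D5:**
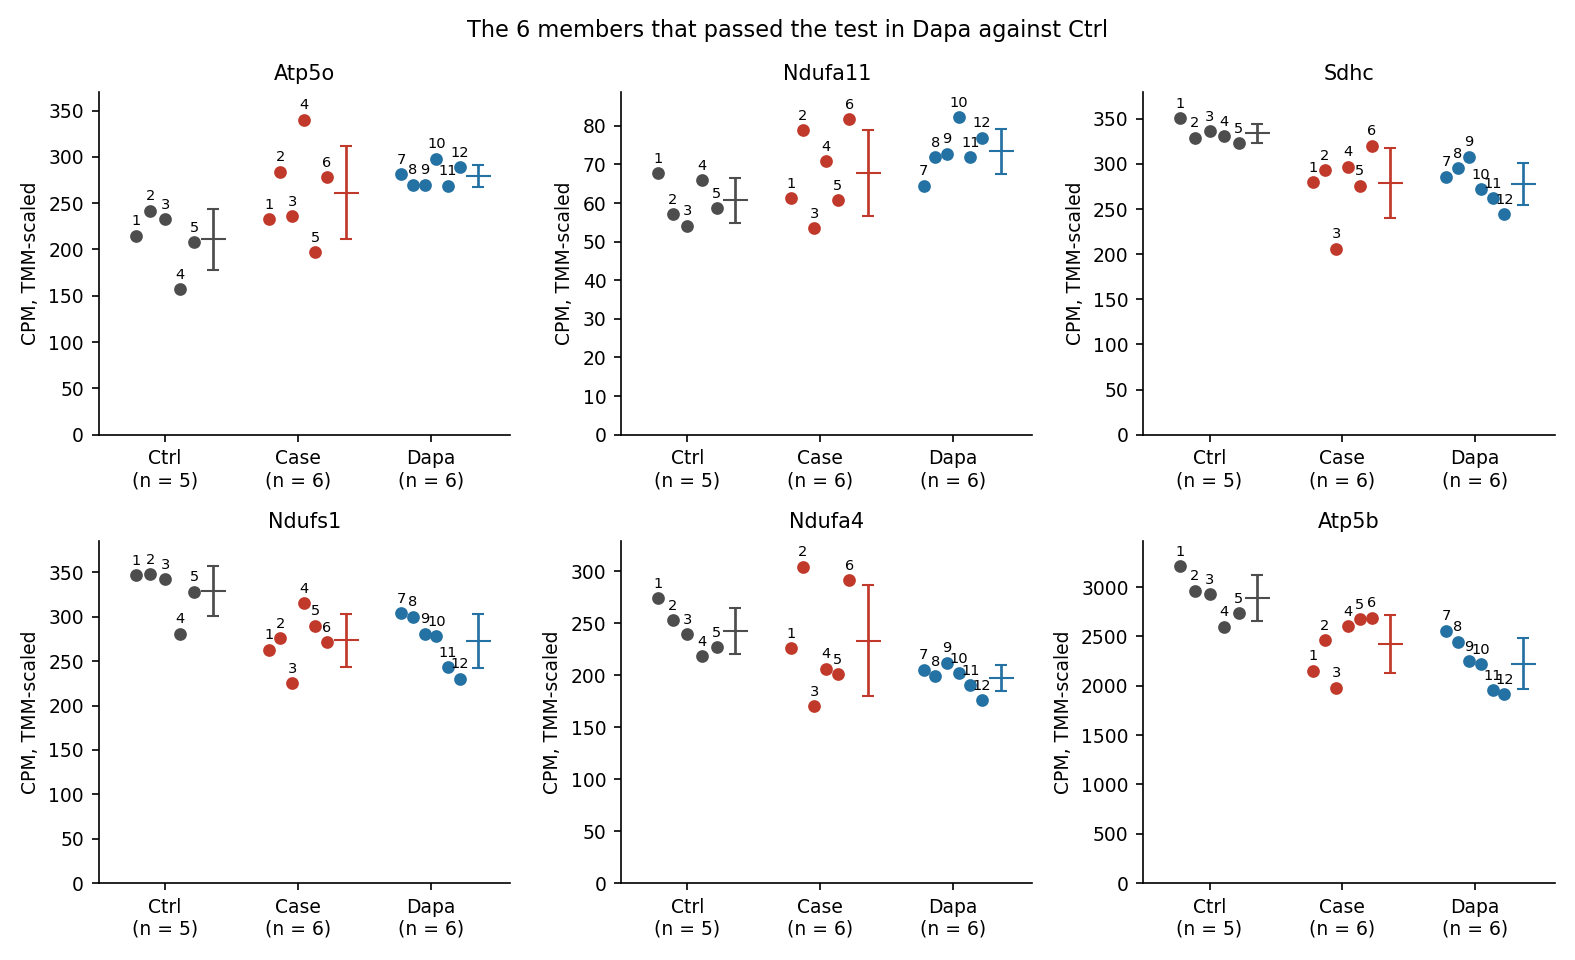
The level of each of the 6 members called in Dapa against Ctrl is shown in TMM-scaled CPM for every mouse of the 3 groups, with group means. Dapa lies wholly above Ctrl for Atp5o and wholly below it for Atp5b, Ndufa4 and Sdhc, while Case overlaps Dapa in all 6.

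No mitochondrial gene was called in Dapa against Ctrl by edgeR on all mice, and 2 had an unadjusted p below 0.05. mt-Atp6 had 17113, 17552, 17074, 17990 and 15512 TMM-scaled CPM in Ctrl and 16926 to 24080 (median 21740) in Dapa (log2 fold change 0.30, 95% interval 0.02 to 0.58, q = 0.096). mt-Atp8 had 6751 to 9607 (median 8868) in Dapa (0.28, interval 0.01 to 0.55, q = 0.104). In each, 4 of 6 Dapa mice were above every Ctrl mouse, and Dapa mice 7 and 8 lay within the Ctrl range. DESeq2 and limma's voom with sample weights called both, and edgeR called mt-Atp8 without Dapa mouse 7 and mt-Atp6 without Dapa mouse 8. Among the others, mt-Cytb (0.26), mt-Nd1 (0.22), mt-Co1 and mt-Co2 (0.19 each), mt-Nd4 (0.14), mt-Nd4l (0.13), mt-Co3 (0.06), mt-Nd2 (0.05) and mt-Nd5 (0.01) had positive log2 fold changes, and mt-Nd6 (-0.08) and mt-Nd3 (-0.10) negative ones.

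Complex II, which has no mitochondrial gene, had the lowest nuclear median of any complex in Dapa against Ctrl. Its summed level was 2071, 2056, 1924, 1895 and 1900 TMM-scaled CPM in Ctrl and 1541 to 1868 (median 1780) in Dapa, with every Dapa mouse below every Ctrl mouse, and 1363 to 2019 (median 1838) in Case, with 3 of 6 below. On summed FPKM 3 of 6 Dapa mice were below every Ctrl mouse and 1 was above. The log2 fold changes were -0.26 for Sdhc, -0.18 for Sdhb (q = 0.149), -0.17 for Sdha (q = 0.163) and -0.05 for Sdhd (q = 0.695), so a single gene of the 4 passed the test. Proximal tubule markers moved with it: 11 of 17 were called lower in Dapa against Ctrl (median -0.42) and 6 of 17 in Case against Ctrl (median -0.38), where 14.9% and 6.91% of all genes were lower, with summed FPKM of 7917 to 8699 in Ctrl, 4603 to 9034 in Case and 5222 to 8559 in Dapa. Collecting duct markers went the other way, with 7 of 10 called higher in Dapa and 4 of 10 in Case, where 14.2% and 6.09% of all genes were higher, and summed FPKM of 144 to 185 in Ctrl, 180 to 275 in Case and 228 to 403 in Dapa. The part of tubule makeup in the values of the members, and of the other gene lists described below, was not tested.

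Promoters of the nuclear members were examined for short motifs of factors known to drive respiratory genes, because the members are often described as coregulated. RefSeq promoters of GRCm38.p6, running from 250 bases before to 50 after the start, were found for 75 of the 94 nuclear members. The NRF1 motif GCGCATGCG was present on either strand in 10 of them (13.3%, against 1.81% of all 27025 promoters), and the YY1 motif AAGATGGCG in 7 (9.33% against 1.49%). The estrogen-related receptor motif TCAAGGTCA was in 2 (2.67% against 0.407%) and the GABPA motif CCGGAAGTG in 2 (2.67% against 2.06%), while TATAAA was in 6 (8% against 14.2%). Any of the 4 factor motifs was present in 21 (28% against 5.53%), and 54 had none. Member promoters had a median GC content of 58.3%, and all promoters 52.7%.

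Of the called members, 2 promoters on the plus strand are shown, that of Ndufa11, which rose (chr17:56717512-56717811), with its overlapping NRF1 motifs of both strands in capitals, and that of Atp5b, which fell (chr10:128083057-128083356), in which none of these motifs was found.
Ndufa11 promoter: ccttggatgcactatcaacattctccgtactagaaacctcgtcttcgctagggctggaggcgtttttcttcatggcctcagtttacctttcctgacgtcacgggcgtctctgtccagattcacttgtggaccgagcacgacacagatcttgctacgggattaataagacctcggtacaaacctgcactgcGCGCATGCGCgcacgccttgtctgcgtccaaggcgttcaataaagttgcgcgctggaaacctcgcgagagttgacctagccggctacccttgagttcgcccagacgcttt
Atp5b promoter: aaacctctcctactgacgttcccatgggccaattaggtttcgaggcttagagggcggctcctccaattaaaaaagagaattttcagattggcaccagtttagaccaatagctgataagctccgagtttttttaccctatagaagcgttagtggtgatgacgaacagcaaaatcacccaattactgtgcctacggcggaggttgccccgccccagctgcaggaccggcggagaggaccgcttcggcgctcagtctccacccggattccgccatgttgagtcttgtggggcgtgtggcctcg
The other NRF1 motifs were in the promoters of Atp5g2, Atp5k, Atp5l, Cox6a1, Ndufa8, Ndufaf4, Ndufaf5, Uqcr11 and Uqcrc1, none of which was called by edgeR in any comparison of all mice. Atp5o, which also rose, was not among the members with an NRF1 motif. In Dapa against Ctrl edgeR called Ndufaf4 without Ctrl mouse 4 or Dapa mouse 10, and limma on FPKM called Atp5g2, Ndufa8 and Ndufaf5. A match of letters describes the promoter and does not show that a factor binds it.

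The factors that act on these genes were read from a list of 14 regulators of mitochondrial biogenesis. In Case against Ctrl 0 of 14 were called by edgeR (2 at an unadjusted p below 0.05), and in Dapa against Ctrl 2 were higher and 2 lower, 28.6% of the list beside 29.1% of all genes. Ppargc1a, the coactivator that drives mitochondrial biogenesis, rose in Dapa against Ctrl, from a mean FPKM of 13.6 to 18.4 (log2 fold change 0.33, SE 0.09, q = 0.0184), with 16.3 in Case (Dapa against Case 0.16, 95% interval -0.01 to 0.33, q = 0.41), and Esrrb rose from 2.91 to 6.94 (1.16, SE 0.34, q = 0.0242). Esrra, the partner of Ppargc1a on respiratory genes, fell from 24 to 21.2 (-0.28, SE 0.09, q = 0.0267), and the clock repressor Nr1d1 fell from 22.1 to 16 (-0.57, SE 0.11, q = 0.00316). In Case against Ctrl the log2 fold change of Nr1d1 was -0.84 to -0.40 over 27 alternatives and called in 6. That of Esrrb was 0.57 to 1.01 and called in 1, while Ppargc1a and Esrra were called in 0. Esrra was not called without any 1 of Ctrl mice 1 to 4 or Dapa mice 9, 10 and 11 (q = 0.0512 to 0.065), nor with upper quartile scaling or limma on FPKM, 10 of 24 alternatives in all with q up to 0.125, and Esrrb was not called without Ctrl mouse 1, 2 or 3 or Dapa mouse 10 (q = 0.0521 to 0.0582). Nrf1 (0.25, q = 0.148), Gabpa (-0.05, q = 0.653), Ppara (-0.02, q = 0.938) and Ppargc1b (0.17, q = 0.587) did not pass, and of the factors that transcribe mitochondrial DNA neither did Tfam (-0.20, q = 0.0651) or Polrmt (0.02, q = 0.87).

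For genes outside the chain that build or feed it, most calls in Dapa against Ctrl were in the lower direction (among all genes 14.2% were higher and 14.9% lower). Of 38 assembly factors 13 were lower and 1 higher (median -0.26), among them Acad9, needed to assemble complex I (-0.94, SE 0.13, q = 0.000557), and Bcs1l, which inserts the Rieske protein into complex III (-0.79, SE 0.15, q = 0.00227). In Case against Ctrl 2 of 37 were called lower (5.41%, beside 6.91% of all genes), Acad9 (-0.78, q = 0.000647) and Cox15, which makes heme a for complex IV (-0.53, q = 0.0106). Of 34 genes for maintenance and transcription of mitochondrial DNA 10 were lower and 1 higher in Dapa (median -0.15), with the helicase Peo1 at -0.65 (q = 0.00121) and the nuclease Mgme1 at -0.61 (q = 0.0173), and 5 were lower in Case (14.7%), led by the RNA-processing factor Fastkd5 (-0.65, q = 0.00133).

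Of 77 subunits of the mitochondrial ribosome, which translates the 13 mitochondrial mRNAs, 19 were lower and 2 higher in Dapa (median -0.12), with Mrpl50 at -0.63 (q = 0.000289) and Mrpl23 at 0.63 (q = 0.011), and 8 were lower and 1 higher in Case (11.7% called, beside 13% of all genes). Of 18 citric acid cycle genes 6 were lower in Dapa, led by Suclg2 (-0.63, q = 0.0272) and Dlst (-0.48, q = 0.00286), and 0 were called in Case (5 at an unadjusted p below 0.05). Of 10 chain genes with other names, 5 were lower (2 without Ctrl mouse 1) and 1 higher in Dapa, with Etfdh, which passes electrons from fatty acid oxidation to ubiquinone, at -0.50 (q = 0.0164) and the ubiquinone enzyme Coq7 at 0.49 (q = 0.0039), and Etfdh was lower in Case as well (-0.47, q = 0.0124). Of 12 inner membrane carriers Ucp2 was higher in Case (0.60, q = 0.0463) and Dapa (0.67, q = 0.00727), Slc25a27 was higher in Case (0.88, q = 0.00688) and Slc25a11 lower in Dapa (-0.43, q = 0.00469). Suclg2 was not called without Ctrl mouse 1, 2 or 3 or Dapa mouse 12 (q = 0.0538 to 0.0707), and Ucp2 in Case was not called without Case mouse 1, 2, 3 or 4 or Ctrl mouse 1, 2, 3 or 5 (q = 0.0742 to 0.103), and in 15 of 27 alternatives in all, with q up to 0.141. In Dapa against Case edgeR called 0 genes of every one of these lists, with 1 to 6 at an unadjusted p below 0.05 in the lists of assembly factors, ribosome, DNA maintenance, regulators and chain genes and 0 in the others. All these values are edgeR's quasi-likelihood test. The shares called in Dapa against Ctrl in either direction were 36.8% of assembly factors, 32.4% of DNA maintenance genes, 27.3% of ribosomal subunits, 33.3% of citric acid cycle genes, 60% of the 10 chain genes with other names and 16.7% of the carriers, beside 29.1% of all genes.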

How the data were processed

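Reads of 17 kidney libraries were aligned to mm10 with HISAT2, and the deposited read count of each gene was made by the authors with Stringtie, whose strand setting is not given in the sources used here. The FPKM values deposited beside the counts are the authors' and followed count, total and gene length within 0.00482%, so they hold no TMM factor. Of 22561 genes, 3 with entries broken over 2 lines were left out. Gene coordinates are those deposited with the counts, and shared stretches and exon overlaps were read from GENCODE M21.

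Counts were compared within each pair of groups by edgeR 4.0.16 (R 4.3.3), with TMM factors, the filterByExpr filter and the quasi-likelihood test, and p-values were adjusted by Benjamini-Hochberg over all genes tested (q, threshold 0.05). The fit was first tested on simulated data. Sums, shares and ratios per mouse carry no test, and p-values measure the spread between these libraries.

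Named were all mitochondrial genes, the 3 highest nuclear members of each complex, members called or (where none was) with the smallest p, isoform pairs, regulators, and up to 2 called genes of each other list, though not every such gene is described. Gm10925 and Cyp2j13 were added once their values were known. Members and lists were chosen with earlier results of these data known.

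The alternatives tried included DESeq2 1.42.0, the exact test of edgeR, other scalings and filters, limma 3.58.1 on log2(FPKM + 1) and log2(FPKM + 0.1), voom with sample weights, all groups in one fit, a term for the 7 libraries, a replicate block, and each mouse left out. Those without Case mice 1 and 2 together, without mt-Atp6 and with the nuclear copies added were chosen after seeing the data. At these depths a member with a few counts, such as Cox8b, has a large counting error.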

Additional observations from a re-analysis of the deposited data

Results flagged for a closer look

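Groups of values were examined for a single mouse far from its group. They were the FPKM of named members, the mitochondrial share, the sums in TMM-scaled CPM and the ratio of mitochondrial to nuclear counts. Of 210 such groups 9 (4.29%), all of them FPKM values, were singled out, and chance alone singles out about 1 in 20 groups. Cox8b, the muscle and brown fat form of a complex IV subunit, was at 2.14 FPKM in Ctrl mouse 3 (the next Ctrl mouse had 0.327) and at 4.08 in Dapa mouse 11 (next 0.195), and the same mice had the highest summed adipocyte markers of their groups (99.5 and 37.7 FPKM). Whether adhering fat contributed to Cox8b was not tested. Sdhc was at 57.3 FPKM in Case mouse 3, below the next Case mouse at 73.2. Ndufa4 was lowest in Dapa mouse 12 at 67.7 FPKM (next 75.4), and Ndufs1 lowest in Ctrl mouse 4 at 25 (next 28.4). Ndufb9 was highest in Dapa mouse 9 at 311 (next 294), and Sdha highest in Ctrl mouse 2 at 186 (next 169). Dapa mouse 8 was highest for Sdhd at 273 (next 228) and lowest for Ndufc1 at 15.3 (next 16.8).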

How the results depend on the processing

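The number of members called was 0 in Case against Ctrl and 0 in Dapa against Case, and leaving out any mouse gave 0 to 0 in both. limma on log2(FPKM + 0.1) and log2(FPKM + 1) called 2 members in Case against Ctrl, and in Dapa against Ctrl each called 15 in place of 6, on the FPKM scale without TMM factors. Leaving out single mice gave 2 (without Ctrl mouse 1 or 2) to 10 (without Dapa mouse 7) calls in Dapa against Ctrl. No log2 fold change of a named member that passed the threshold changed sign under any alternative. Of 1341 values of named members in Dapa against Ctrl, 30 fell below and 16 rose above the threshold. The difference of the nuclear sum on the log2 scale changed sign with the scale: in Case against Ctrl it was -0.04 on TMM-scaled CPM, 0.10 on FPKM and 0.11 on counts without mitochondrial genes, and in Dapa against Ctrl -0.09, 0.07 on FPKM, 0.02 on plain CPM and 0.09 without mitochondrial genes. The log2 differences of the mitochondrial share (0.24 in Case against Ctrl, 0.27 in Dapa against Ctrl) stayed within 0.18 to 0.27 and 0.22 to 0.32 when any mouse was left out, and those of the ratio (0.19 and 0.25) within 0.14 to 0.23 and 0.19 to 0.31. With the replicate number as a block (replicate block, 10 mice of Case and Ctrl) 0 members were called, and 699 genes against 1615 without the block in the same mice, but the numbers do not pair the mice (correlations -0.08 to -0.04). Counts lower among assembly factors in Dapa against Ctrl ranged from 6 to 15 over the alternatives, among mitochondrial ribosome genes from 7 to 23, among DNA maintenance genes from 5 to 13 and among citric acid cycle genes from 1 (without Ctrl mouse 2) to 7, the lowest of the first 3 under limma on log2(FPKM + 0.1). In Case against Ctrl they ranged from 1 to 4 among assembly factors, 0 to 11 among ribosome genes and 1 to 6 among DNA maintenance genes, each lowest with the replicate block. Precision was limited by the number of mice and, for 23 members, by stretches shared with other genes. In addition, the exons of 42 members (32 nuclear and 10 mitochondrial) overlapped those of another annotated gene on either strand, by up to 65.6% of their bases (Ndufaf2). The effect of these overlaps on the counts was not tested.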
